A study of Caenorhabditis elegans with 8 samples.

Results

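Close same-strand gene pairs are intervals of 50 to 500 bp between neighbouring protein-coding genes of the same orientation with no other gene inside, according to the Ensembl annotation of WBcel235. Of 7713 same-strand intervals of at least 50 bp, 3213 satisfied this rule. They involved 5647 genes, and their median length was 197 bp. A gene overlapping the flanking windows was annotated for 230 of them. For comparison, 922 same-strand intervals were 2 to 5 kb long. Repair was measured by XR-seq, in which the short pieces of DNA released by nucleotide excision repair are captured and sequenced, here those with cyclobutane pyrimidine dimers (CPDs). The 8 libraries form 4 groups of 2 replicates: mixed-stage *xpc-1* mutants 1 h after UVB, *csb-1* mutants at the L1 larval stage 1 h after UVB, wild-type (WT) L1 larvae 1 h after UVB, and WT L1 larvae without UV. All are whole worms grown on *E. coli* OP50, and WT is the N2 ancestral strain. The *xpc-1* strain is TG2226 and the *csb-1* strain RB1801, 1 strain for each mutation, and in the *xpc-1* libraries genotype and developmental stage cannot be told apart.

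In worms, neighbouring genes of the same orientation can belong to an operon, in which a shared promoter drives a polycistronic precursor RNA that is cut into separate messages. The downstream messages usually receive the SL2 spliced leader by trans-splicing at an AG acceptor, and genes of an operon typically lie close together. Excision repair uses a global pathway, which needs *xpc-1*, and a transcription-coupled pathway, which needs *csb-1* and is triggered by RNA polymerase II stalled at a lesion in the template. Repair of the transcribed strand (TS, which runs opposite to the annotated gene strand) can therefore be followed from the upstream gene across the interval into the downstream gene, against repair of the non-transcribed strand (NTS). Reads were placed by their midpoint in the last 500 bp of the upstream gene, in the interval, and in the first 500 bp of the downstream gene.

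The interval sequences were examined first, since CPDs form mainly at adjacent thymines and trans-splicing needs an acceptor. Intervals of 3 known operon pairs, and of a pair with one of the highest TS levels in *xpc-1*, are shown 5′ to 3′ on the strand of the genes (RefSeq sequence of WBcel235). A TT in these letters is a potential CPD site of the NTS, and an AA is a potential site of the TS. Capitals mark an AG at the last 2 positions, directly before the annotated start of the downstream gene.
*gpd-2*|*gpd-3*, chrX:3113342-3113442, minus strand: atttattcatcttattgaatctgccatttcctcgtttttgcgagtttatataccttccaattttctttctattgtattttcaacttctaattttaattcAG
*fib-1*|*rps-16*, chrV:15000542-15000650, minus strand: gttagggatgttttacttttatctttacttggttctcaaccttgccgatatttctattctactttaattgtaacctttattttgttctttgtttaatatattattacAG
*lir-2*|*lir-1*, chrII:7671910-7672004, plus strand: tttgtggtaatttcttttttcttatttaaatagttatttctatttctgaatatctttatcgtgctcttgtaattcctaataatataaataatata
*vgln-1*|*algn-8*, chrII:9886443-9886543, minus strand: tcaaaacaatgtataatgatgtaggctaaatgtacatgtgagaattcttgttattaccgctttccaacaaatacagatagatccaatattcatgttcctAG

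The first 3 of these intervals were rich in T on the gene strand. In TT dinucleotides, *gpd-2*|*gpd-3* held 5 (TS) and 28 (NTS), *fib-1*|*rps-16* held 4 and 30, and *lir-2*|*lir-1* held 10 and 21. *vgln-1*|*algn-8* differed, with 12 (TS) and 8 (NTS). A terminal AG was present in 53.6% of the 1335 intervals of 50 to 149 bp, in 26.0% of the 1878 intervals of 150 to 500 bp, in 33.0% of the intervals of 2 to 5 kb, and in 30.8% of all 7713. Between 100 and 124 bp the share was 65.8%. The longer ending TTTCAG is the worm splice acceptor consensus on the gene strand. It closed 18.9% of the intervals of 50 to 149 bp, 11.2% of those of 150 to 500 bp, 15.8% of those of 2 to 5 kb and 12.8% of all. The letters AATAAA, a cleavage and polyadenylation signal, stood within the first 100 bases of the gene strand in 6.52%, 16.7%, 14.4% and 14.9% of the same sets. They were in none of the 4 printed intervals, and an interval shorter than 100 bp offers fewer positions. Only the interval was searched, so a signal inside the annotated end of the upstream gene is not counted. The shares do not show whether upstream genes have one. T made up 40.6% of the gene strand of the intervals of 50 to 149 bp and 35.4% of that of 150 to 500 bp. Per kb of interval, TT dinucleotides numbered 116 (TS) and 204 (NTS) in the shorter class, 132 (TS) and 161 (NTS) in the longer. Strand ratios are therefore given below per TT dinucleotide where lengths are compared.

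Close pairs were unevenly spread over the chromosomes. They made up 49.5% of the same-strand intervals of chromosome III and 47.6% of those of chromosome I, but 23.5% of those of chromosome X. For intervals of 50 to 149 bp, the shares were 26.8% on chromosome III and 8.43% on chromosome X.

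Reads with a mapping quality over 20 numbered 4762651 and 143716 in *xpc-1*, 6628507 and 13203914 in *csb-1*, 8198054 and 3252700 in WT, and 10260 and 12916 in WT no UV. *xpc-1* replicate 2 is thus far shallower than replicate 1. Each distinct read kept had a mean of 18.9 copies in WT replicate 2, against 1.25 to 3.29 in the other libraries. In an 800 bp stretch of the *csb-1* gene, chosen because it held no read in either *csb-1* library, *xpc-1* had 33 and 1 reads and WT had 45 and 21. A comparable stretch of the *xpc-1* gene was too sparse in WT (3 and 0 reads) to check the *xpc-1* label. Over 41 genes of yolk, oocytes, sperm and adult cuticle, the summed TS against NTS ratio was 3.48 and 2.32 on the log2 scale in *xpc-1*, 0.00 and 0.02 in *csb-1*, and 0.23 and 0.00 for WT. A TS read lay in 15 and 6 of the 41 genes in *xpc-1* and in 18 to 28 of them in the irradiated L1 libraries. The median TS level of these genes was 0 RPKM in both *xpc-1* libraries. Their strand ratio depends on strain as well, and so cannot tell stage from genotype. The part of these stages in the results below was not tested.

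The intervals of close pairs held 26215 TS reads and 14001 NTS reads in *xpc-1* replicate 1, and 542 and 380 in replicate 2. TS reads were thus 65.2% (95% exact interval 64.7 to 65.7) and 58.8% (55.5 to 62.0) of the interval reads in *xpc-1*, against 45.0% and 45.1% in *csb-1*, and 46.2% and 46.8% for WT. Unirradiated WT libraries had 70 and 107 reads in all 3213 intervals together, against 27187 to 119073 in the irradiated L1 libraries. The confidence intervals cover counting error only. In whole worms, a different share of cells and a different level per cell cannot be told apart. In log2 terms, the interval ratio of TS to NTS averaged 0.71 ± 0.278 in *xpc-1*, -0.29 ± 0.00569 in *csb-1* and -0.20 ± 0.0238 in WT (SD, n = 2 each). It was higher in both *xpc-1* libraries than in WT by a mean of 0.91, and lower in both *csb-1* libraries by a mean of 0.08. With 2 libraries against 2, an exact two-sided permutation test gave p = 0.3333 for each, the smallest it allows. Nothing in the labels says whether replicates are separate cultures, so all tests measure the spread between these libraries, which may be technical.

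Template-strand repair in *xpc-1* was lower in the interval than in the genes beside it. The TS level was 7.54 and 5.16 RPKM in the interval (reads per kilobase, scaled to the kept reads of the library), against 14.8 and 12.8 RPKM in the upstream gene end and 17.5 and 14.3 RPKM in the downstream gene start. In the L1 libraries the levels were nearly even, at 5.63 and 5.57 RPKM in the interval of *csb-1* against 4.79 to 5.28 RPKM in its genes, and at 5.66 and 5.35 RPKM in the interval of WT against 5.63 to 6.26 RPKM in its genes. The strand ratio in *xpc-1* was 1.91 and 2.13 at the upstream gene end and 2.91 and 2.94 at the downstream gene start on the log2 scale, both above the interval values of 0.90 and 0.51.

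Between all close pairs and pairs 2 to 5 kb apart, no difference in the interval passed the test. The close interval ratio minus the far one was -0.12 and -0.46 in *xpc-1*, 0.02 and -0.02 in *csb-1*, and 0.01 and 0.00 for WT on the log2 scale (mean -0.09, exact two-sided sign-flip test over 6 libraries, p = 0.3750). In *xpc-1* the mean difference of -0.29 depended on the part compared, and was 0.63 against only the first 250 bp of the far intervals, -1.03 against only their last 250 bp and 0.32 against pairs over 500 bp and under 2 kb apart. The sign of the mean over all 6 libraries turned to 0.09 per TT dinucleotide. With both genes at least 1 kb long the mean was -0.15 (exact sign-flip p = 0.03125). The differences there were -0.20 and -0.64 in *xpc-1*, -0.00 and -0.02 in *csb-1*, and -0.03 and -0.02 for WT. The TS level of the interval relative to its flanks, close minus far, was -0.28 and -0.50 in *xpc-1*, 0.12 and 0.09 in *csb-1*, and 0.05 and -0.04 for WT (mean -0.09, exact two-sided p = 0.4688). Against only the first 250 bp of the far intervals this mean turned to 0.14.

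The strand ratio changed with interval length inside the class. The shortest intervals, of 50 to 74 bp, had a ratio per TT dinucleotide of 1.45 and 0.51 in *xpc-1* (the second from 8 reads), -0.07 and -0.02 in *csb-1*, and 0.03 and 0.23 for WT, below the classes between 75 and 149 bp in every irradiated library. On the same scale, the *xpc-1* strand ratio was 2.49 and 1.74 in intervals of 75 to 99 bp and 3.0 and 2.21 in those of 100 to 124 bp. At 150 to 199 bp it was 1.10 and 0.86, and at 300 to 399 bp 0.80 and 0.51. Just inside the limit of 500 bp, in intervals of 400 to 500 bp, it was 0.97 and 0.78, and just outside, at 501 to 999 bp, 0.58 and 0.31. The far intervals had 1.23 and 1.18. *csb-1* had 0.46 and 0.47 at 100 to 124 bp and -0.01 and 0.04 at 300 to 399 bp, and WT had 0.74 and 0.90 at 100 to 124 bp and 0.04 and 0.02 at 300 to 399 bp. In the far intervals *csb-1* had -0.11 and -0.06 and WT -0.03 and 0.01. A split at 150 bp was made after these values were seen, and its differences are given without a test.

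**Figure D1:**
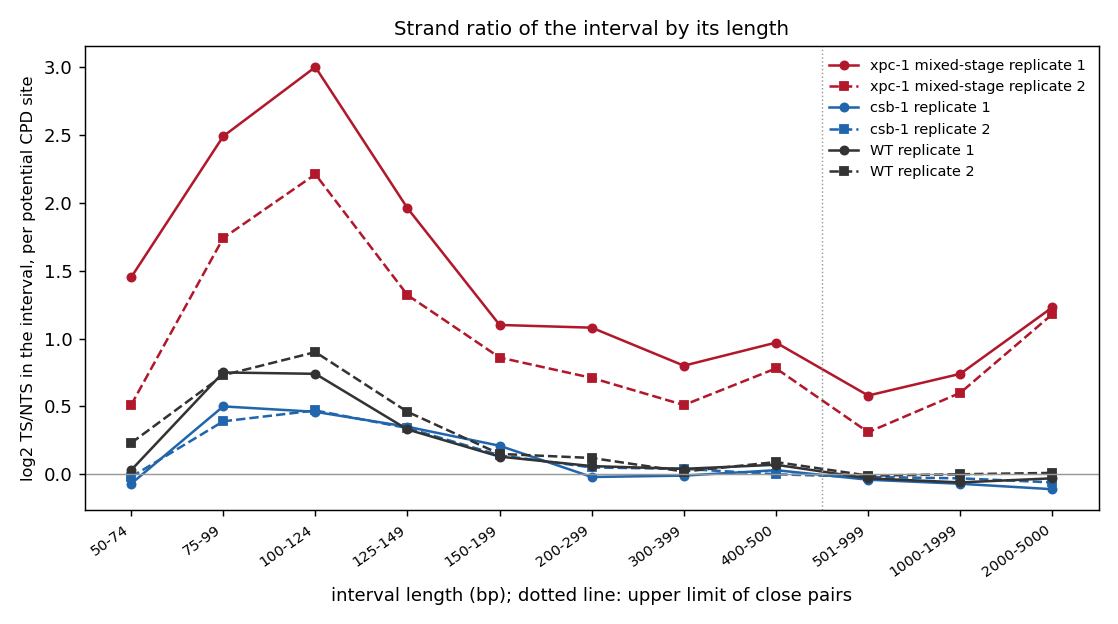
Strand ratio of same-strand intervals by interval length, with 1 line for each irradiated library. The vertical axis is the log2 ratio of TS to NTS reads summed over the intervals of a class and divided by the ratio of their TT dinucleotides (potential CPD sites), and the horizontal axis is the length class in bp. *xpc-1* reaches 3.0 and 2.21 at 100 to 124 bp and lies between 0.31 and 1.10 from 150 to 999 bp, and WT is highest at 100 to 124 bp in replicate 2 (0.90).

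Per TT dinucleotide, intervals of 50 to 149 bp exceeded those of 150 to 500 bp in every irradiated library. The difference in the ratio per TT dinucleotide averaged 1.37 in *xpc-1*, 0.38 in *csb-1* and 0.60 in WT (mean over 6 libraries 0.78, higher in 6 of 6). Without the correction for TT content, the differences averaged 0.85 in *xpc-1*, -0.14 in *csb-1* and 0.08 in WT, with no common direction (mean 0.26). In *csb-1*, which lacks transcription-coupled repair, the corrected ratio was 0.42 and 0.39 in the shorter class and 0.02 and 0.03 in the longer. An offset above 0 in the shorter class is thus not particular to *xpc-1* and WT, and its source was not tested. Within 50 to 149 bp, the interval ratio in *csb-1* was lower than in WT by 0.26, and within 150 to 500 bp by 0.04. *xpc-1* exceeded WT by 1.52 in the shorter class and by 0.75 in the longer. Whether these contrasts differ between the length classes was not tested.

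The upstream gene end followed interval length as well. There the *xpc-1* ratio per TT dinucleotide was 2.34 and 2.67 for intervals of 50 to 74 bp, 3.54 and 3.89 for intervals of 75 to 99 bp, and 1.76 and 1.90 for intervals of 150 to 199 bp. The *csb-1* values were 0.12 and 0.06 at 50 to 74 bp, 0.13 and 0.12 at 75 to 99 bp and 0.00 and 0.05 at 150 to 199 bp, and the WT values 0.56 and 0.62, then 0.62 and 0.86, then 0.21 and 0.33. At the downstream gene start *xpc-1* had 2.75 and 2.79 for 50 to 149 bp and 2.98 and 2.98 for 150 to 500 bp, but 1.62 and 1.69 for the 145 pairs of 50 to 74 bp.

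Per kb, the start of the downstream gene had more TS repair than the end of the upstream gene, and in close pairs this step was smaller than in far pairs. For close pairs, the log2 ratio of TS reads per kb at the downstream start to those at the upstream end was 0.24 and 0.16 in *xpc-1*, 0.12 and 0.07 in *csb-1*, and 0.10 and 0.08 for WT. For pairs 2 to 5 kb apart it was 0.62 and 1.06 in *xpc-1*, 0.14 and 0.11 in *csb-1*, and 0.37 and 0.35 for WT. Per TT dinucleotide the close pairs lay near 0, at 0.11 and 0.03 in *xpc-1*, -0.01 and -0.06 in *csb-1*, and -0.03 and -0.05 for WT, and the far pairs had 0.56 and 0.99 in *xpc-1*, 0.07 and 0.04 in *csb-1*, and 0.30 and 0.28 for WT. Per kb, close minus far averaged -0.64 in *xpc-1*, -0.03 in *csb-1* and -0.27 in WT, lower in 6 of 6 libraries (mean -0.31, exact two-sided sign-flip p = 0.03125, the smallest that 6 libraries allow). Counting copies or any mapping quality gave means of -0.32 and -0.29 with exact sign-flip p = 0.06250 each, lower in 5 of 6 libraries. In *csb-1* the difference was -0.02 and -0.03, and 0.00 and -0.01 with either alternative. The test takes all strains together, so its p-value turns on these small *csb-1* values. Without *xpc-1* replicate 2 the mean was -0.19, lower in 5 of 5 libraries.

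By length, the ratio of downstream start to upstream end in *xpc-1* passed through 0 near 150 bp. Per TT dinucleotide it was -0.29 and -0.61 in *xpc-1* at 75 to 99 bp and -0.23 and -0.37 at 100 to 124 bp, so that the upstream gene end had more TS repair than the downstream start. At 150 to 199 bp it was 0.22 and 0.29, and at 400 to 500 bp 0.82 and 1.01. In *csb-1* it was -0.11 and -0.13 at 75 to 99 bp and 0.10 and 0.02 at 400 to 500 bp. In WT the same classes had -0.25 and -0.33, then 0.26 and 0.31. The difference between the shorter and the longer close pairs averaged -0.90 in *xpc-1*, -0.10 in *csb-1* and -0.39 in WT (mean -0.47).

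**Figure D2:**
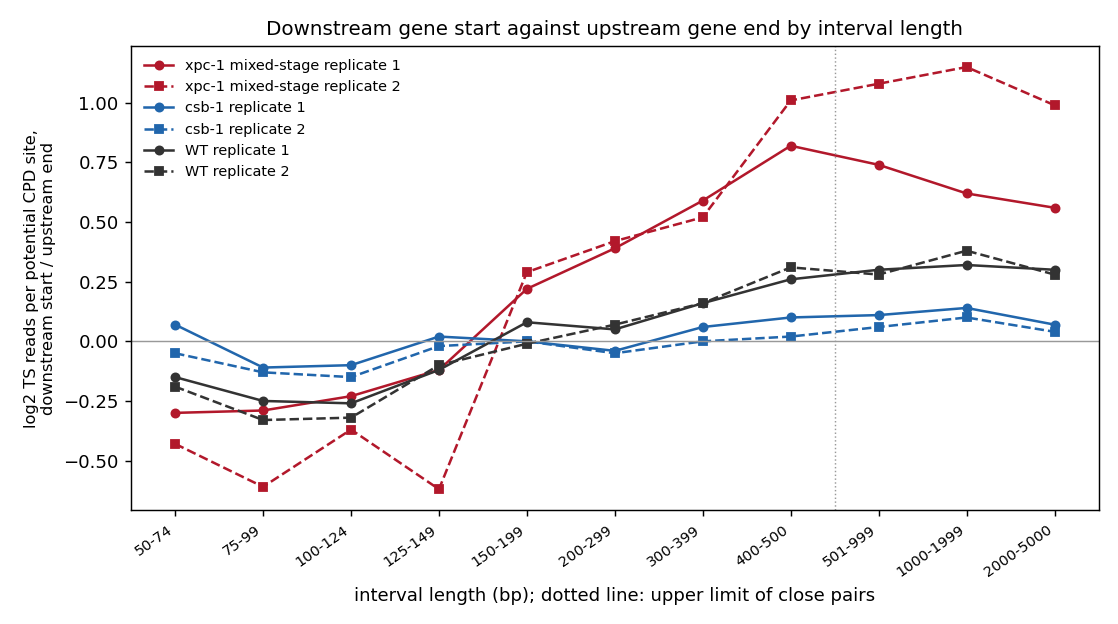
TS repair at the first 500 bp of the downstream gene relative to the last 500 bp of the upstream gene, by interval length. The vertical axis is the log2 ratio of TS reads per TT dinucleotide, and each line is 1 irradiated library. All 4 *xpc-1* and WT lines lie below 0 up to 149 bp, and at 400 to 500 bp *xpc-1* has 0.82 and 1.01 and WT 0.26 and 0.31, while *csb-1* stays between -0.15 and 0.14 in all classes.

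The profile across the pairs showed where the reads lay. In *xpc-1* replicate 1, the TS level of pairs 50 to 149 bp apart stood at 24.4 RPKM near the start of the upstream window, at 15.4 in its last 50 bp, at 7.18 in the fourth part of the interval, and at 23.1 in the first 50 bp of the downstream gene. For pairs 150 to 500 bp apart the corresponding values were 11.8, 7.89, 7.67 and 17.2, and the lowest, 4.96, lay in the second part of the interval. In WT replicate 1 the fourth part of the shorter intervals had 5.01 RPKM, and the parts beside it 5.67 and 5.69 RPKM.

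In *xpc-1*, NTS reads rose towards the end of the upstream gene, among the 3 classes profiled most in pairs 150 to 500 bp apart. There they reached 8.65 RPKM in replicate 1 between 100 and 50 bp before the gene end, against 4.63 RPKM in pairs 50 to 149 bp apart and 2.96 RPKM in pairs 2 to 5 kb apart. Among pairs 150 to 500 bp apart with at least 10 reads at the upstream end in that library, 270 of 1082 (25%) had more NTS than TS reads, against 56 of 1121 (5.00%) of the pairs 50 to 149 bp apart and 71 of 425 (16.7%) of the far pairs. Pairs over 500 bp and under 2 kb apart, which were not profiled, had 313 of 1450 (21.6%). The NTS reads of pairs 150 to 500 bp apart were concentrated, with 39.2% of them in the 5% of pairs that had the most. This share was 32.9%, 45.2% and 41.3% in pairs 50 to 149 bp, over 500 bp and under 2 kb, and 2 to 5 kb apart. *csb-1* and WT also had an NTS rise near the gene end in all 3 classes, with 6.22 RPKM in *csb-1* replicate 1 and 6.09 RPKM in WT replicate 1 in the same 50 bp of pairs 150 to 500 bp apart.

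**Figure D3:**
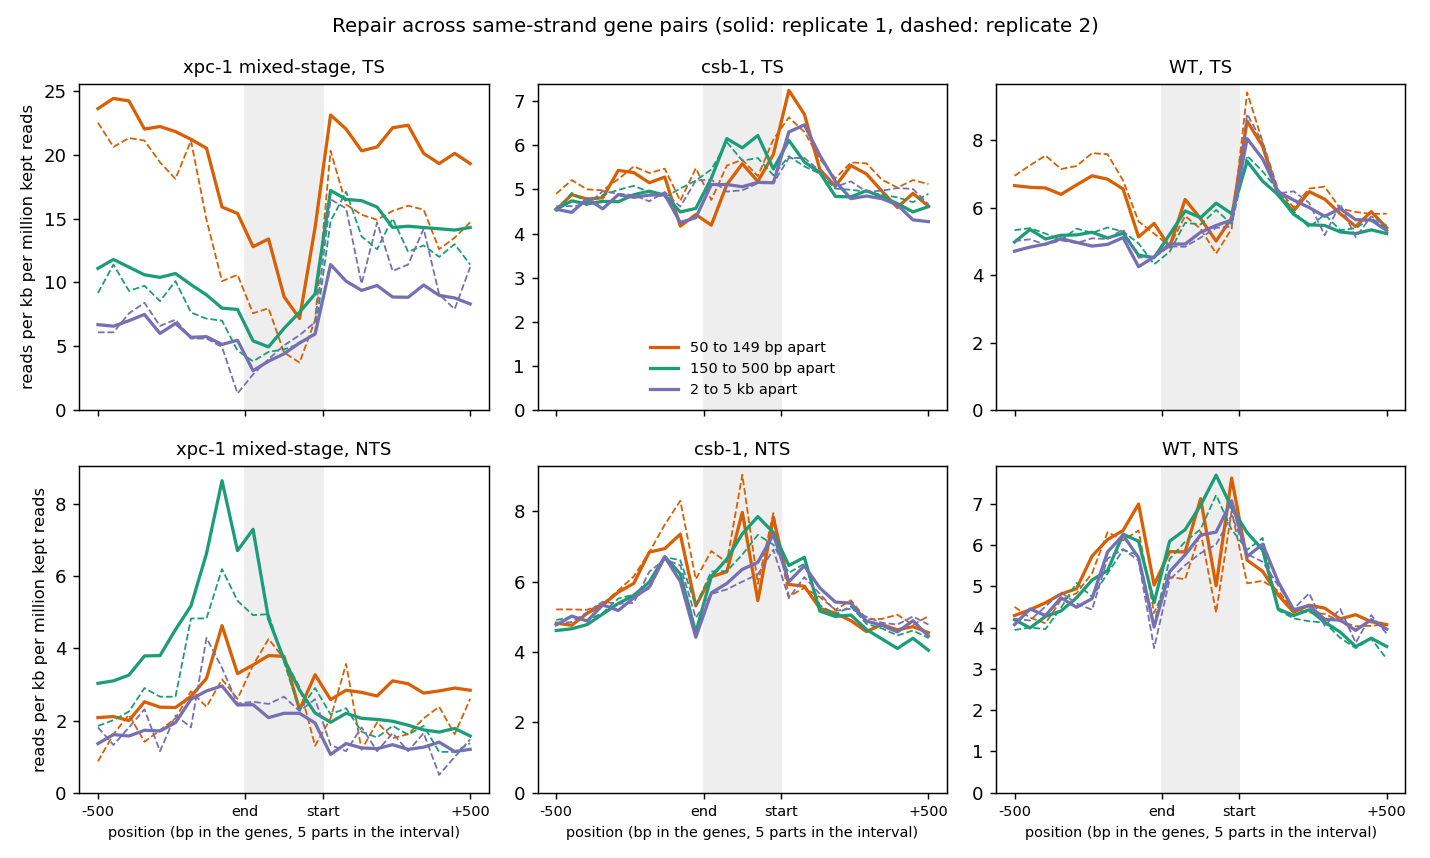
Reads in RPKM across same-strand pairs, on the TS (top row) and NTS (bottom row), for *xpc-1* (left), *csb-1* (middle) and WT (right), with a separate vertical scale in each panel. The horizontal axis runs through the last 500 bp of the upstream gene in 50 bp steps, 5 equal parts of the interval (shaded) and the first 500 bp of the downstream gene, colours are interval lengths, solid lines replicate 1 and dashed lines replicate 2. In *xpc-1* the TS level at the upstream end is highest for pairs 50 to 149 bp apart, and the NTS level before the gene end is highest for pairs 150 to 500 bp apart.

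Intervals that end in AG had a higher strand ratio in *xpc-1* than others of like length. Among intervals of 50 to 149 bp, the *xpc-1* ratio per TT dinucleotide was 3.23 and 2.22 in the 716 that end in AG and 1.59 and 1.31 in the 619 that do not. Among those of 150 to 500 bp it was 1.87 and 1.59 in 489 intervals with the ending and 0.33 and 0.17 in 1389 without. *csb-1* had 0.44 and 0.41 with the ending and 0.30 and 0.31 without in the shorter class, and 0.04 and 0.11 with and 0.01 and 0.00 without in the longer. WT had 0.77 and 0.83 with the ending and 0.38 and 0.53 without in the shorter class, and 0.23 and 0.26 with and -0.00 and 0.01 without in the longer. In *xpc-1* the ratio was 1.55 and 1.65 with the ending and 0.98 and 0.83 without it in intervals of 2 to 5 kb. At the upstream gene end of intervals under 150 bp, *xpc-1* had 3.95 and 4.04 with the ending and 2.42 and 2.73 without. For intervals of 150 to 500 bp the upstream end did not differ in this way, with 1.30 and 1.41 against 1.28 and 1.58. The downstream start in *xpc-1* was higher with the ending in both classes. It had 3.18 and 3.33 against 2.04 and 2.10 in the shorter class, and 3.63 and 3.69 against 2.48 and 2.51 in the longer. The split by ending was not tested. In worm annotation a gene start directly after an AG can be a trans-splice site, with the transcript beginning further upstream.

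**Figure D4:**
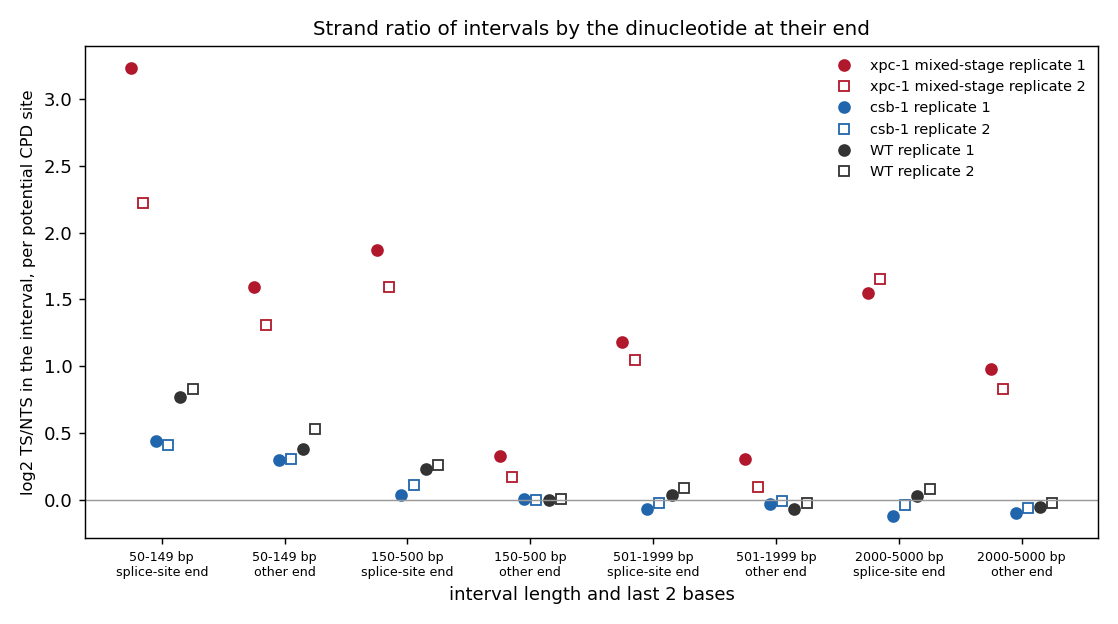
Interval strand ratio per TT dinucleotide (log2, vertical axis) of intervals that end in AG (splice-site end) and of other intervals, in 4 length classes, with filled symbols for replicate 1 and open symbols for replicate 2. In both *xpc-1* libraries each class with the ending lies above the same class without it, 1.87 and 1.59 against 0.33 and 0.17 at 150 to 500 bp, whereas *csb-1* has 0.04 and 0.11 against 0.01 and 0.00 there.

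Gene families differed in how often they lay in close pairs. Of the genes encoding the transcription machinery, 67.3% were in a close pair, and so were 60.0% of mitochondrial ribosomal protein genes and 42% of cytosolic ribosomal protein genes, against 28.3% of all protein-coding genes. Chemoreceptor genes, at 27.2%, were near that background, and neuropeptide genes, at 5.71%, and major sperm protein genes, at 9.68%, were below it. Pairs with a mitochondrial ribosomal protein gene lay 50 to 149 bp apart in 39 of 51 cases (76.5%), whereas 34 of 285 chemoreceptor pairs (11.9%) did, against 41.5% of all close pairs. Families were taken by symbol, and a pair counted if either gene belonged.

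Pairs with genes of translation and transcription had higher strand ratios at the upstream gene end than all close pairs, but more of them were short. At the upstream gene end the *xpc-1* ratio per TT dinucleotide was 3.49 and 4.58 in pairs with a mitochondrial ribosomal protein gene, 3.39 and 3.59 with a gene of the transcription machinery and 2.88 and 3.44 with a cytosolic ribosomal protein gene, against 2.17 and 2.38 in all close pairs. Of these pairs 76.5%, 70.5% and 64.9% were 50 to 149 bp apart, against 41.5% of all close pairs. All pairs 50 to 149 bp apart had 3.30 and 3.48 at the upstream end in *xpc-1*. Transcription machinery pairs were close to these values and cytosolic ribosomal protein pairs below them. The part of interval length in the family values was not tested. In WT the cytosolic ribosomal protein pairs stood furthest from the rest, with 1.82 and 2.24 against 0.42 and 0.55 in all close pairs, and *csb-1* had 0.70 and 0.33 there. In the WT interval, proteasome pairs had 0.97 and 1.12, vacuolar ATPase pairs 0.86 and 0.91 and cytosolic ribosomal protein pairs 1.13 and 1.06. All close pairs had 0.17 and 0.20 there. The *csb-1* interval values were 0.44 and 0.46, 0.27 and 0.42, and 0.94 and 0.67 in this order. Over all close pairs *csb-1* had 0.10 and 0.11. Receptor and environmental families were lower. Chemoreceptor pairs had 1.17 and 1.81 at the upstream end in *xpc-1*, nuclear hormone receptor pairs 0.83 and 1.45, and C-type lectin pairs 1.27 and 0.92. All pairs 150 to 500 bp apart had 1.26 and 1.48 there. Nuclear hormone receptor intervals were below 0 in every irradiated library, and so not only in *xpc-1*. The *xpc-1* values were -0.50 and -0.29, the second from 6 TS and 8 NTS reads. *csb-1* had -0.19 and -0.11 there, whereas WT had -0.22 and -0.06.

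**Figure D5:**
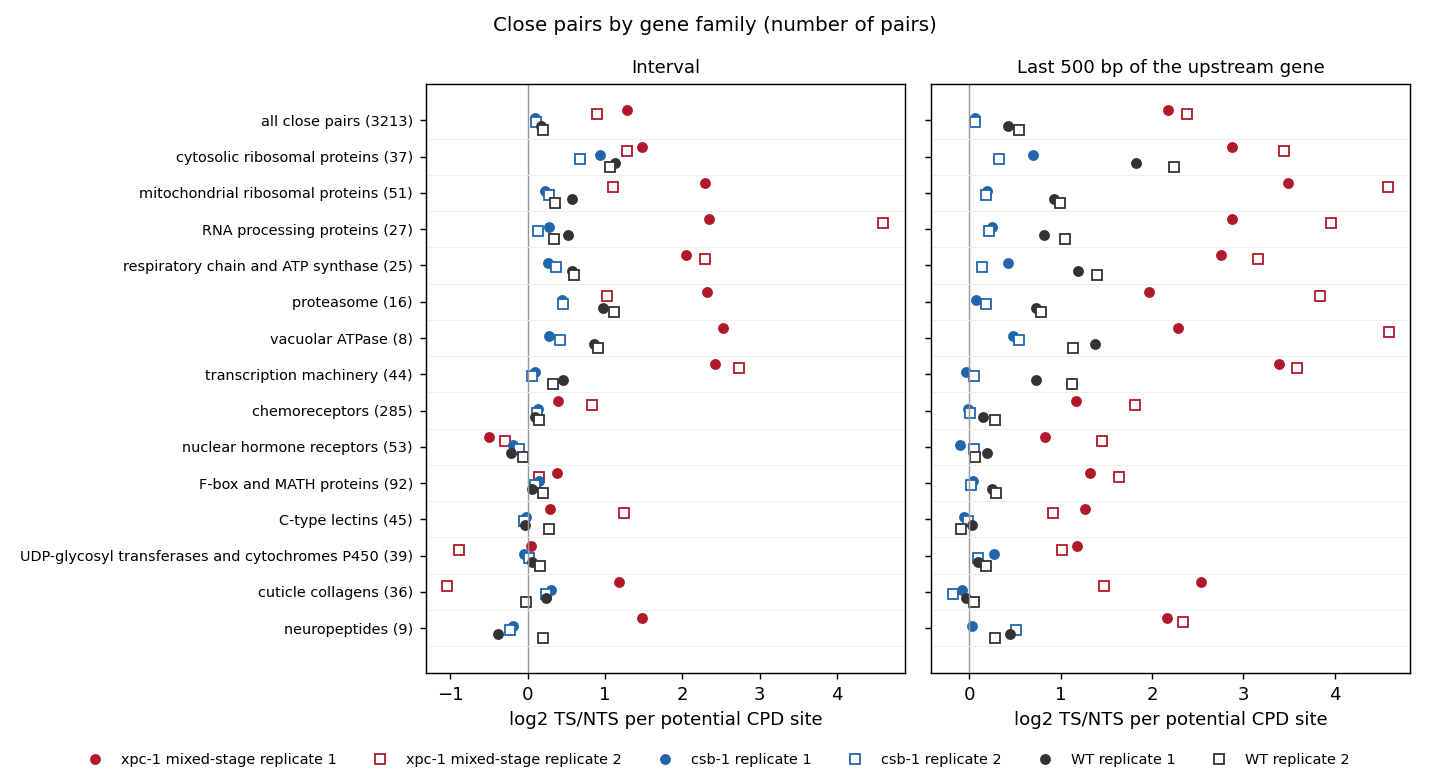
Strand ratio per TT dinucleotide (log2, horizontal axis) of close pairs by gene family in the interval (left) and in the last 500 bp of the upstream gene (right), with the number of pairs in parentheses, filled symbols for replicate 1 and open symbols for replicate 2. Families with fewer than 8 pairs are left out, and a symbol is missing where a strand had no read. Cytosolic ribosomal protein pairs have the highest WT values at the upstream end (1.82 and 2.24), and the values of *xpc-1* replicate 2 rest on few reads in the smaller families.

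To ask which single pairs lose strand preference without *csb-1*, log2((TS + 0.5)/(NTS + 0.5)) of each window was compared between *csb-1* and WT with limma over all same-strand pairs of at least 50 bp with a mean of at least 20 reads. In the interval, 1301 close pairs were tested among 5607, 112 of them 50 to 149 bp apart and 1189 of them 150 to 500 bp apart. The read filter thus left out most of the 1335 intervals of 50 to 149 bp. Of the 1301, 0 were lower or higher at an adjusted p of 0.05, as were 0% of all pairs in either direction. At an unadjusted p of 0.05, 76 were lower and 45 higher (5.84% and 3.46%, against 3.58% and 2.76% of all pairs). At the upstream gene end, 0 of 2830 passed, with 358 lower and 44 higher at the unadjusted level (12.7% and 1.55%, against 8.86% and 1.60% of all). At the downstream gene start, 0 of 2810 passed, with 358 lower and 36 higher (12.7% and 1.28%, against 11.8% and 1.39% of all). On simulated intervals this fit recovered 0 of 200 changed by 2 on the log2 scale and 154 of 200 changed by 4, so its 0 calls do not show that pairs are alike. Leaving out WT replicate 1 gave 62 lower and 53 higher in the interval, 432 and 107 at the upstream end and 438 and 132 at the downstream start, whereas leaving out WT replicate 2 gave 0 in the interval in both directions, 5 and 0 at the upstream end and 95 and 8 at the downstream start. The counts thus depend on which WT library is kept. WT replicate 2 is the shallower of them and had a mean of 18.9 copies per distinct read, against 1.86 in WT replicate 1. The part of this in the counts was not tested.

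Weighting each value by its read counts, an alternative that recovered 161 of 200 simulated interval changes of 2, called pairs at the same threshold. In the interval it called 6 close pairs lower in *csb-1* and 1 higher (0.461% and 0.0769%, against 1.11% and 0.107% of all 5607). It called 0 of the 112 tested pairs 50 to 149 bp apart in either direction. At the upstream gene end it called 138 lower and 3 higher (4.88% and 0.106%, against 2.82% and 0.123% of all 6514). Of the 138, 93 were among the 1231 tested pairs 50 to 149 bp apart (7.55%), and 45 among 1599 of 150 to 500 bp (2.81%), while 14 of 784 far pairs (1.79%) were lower. At the downstream gene start it called 150 lower and 1 higher (5.34% and 0.0356%, against 5.31% and 0.0152% of all 6559), a share near the background. The median difference, *csb-1* minus WT, was -0.32 at the upstream end and -0.31 at the downstream start of close pairs, against -0.22 and -0.28 over all pairs tested.

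By family, the weighted fit called the upstream end lower in 16 of 37 cytosolic ribosomal protein pairs, in 6 of 25 pairs of the respiratory chain and ATP synthase, in 4 of 8 vacuolar ATPase pairs, in 7 of 50 mitochondrial ribosomal protein pairs and in 4 of 38 transcription machinery pairs, with 1 mitochondrial ribosomal protein pair higher, against 4.88% of all close pairs and 2.82% of all pairs tested lower. Proteasome pairs had 2 of 16 and RNA processing pairs 2 of 23. The fit called 7.55% of all tested pairs 50 to 149 bp apart lower. It called 4 of 207 chemoreceptor pairs, 1 of 73 F-box and MATH pairs, 1 of 51 nuclear hormone receptor pairs, 1 of 38 pairs of UDP-glycosyl transferases and cytochromes P450, and none of 33 C-type lectin, 23 cuticle collagen and 7 neuropeptide pairs, with no higher call. These counts are small, and the 4 chemoreceptor pairs (1.93%) and 1 of 38 (2.63%) lie near the background of 2.82%. Of the 3 major sperm protein pairs, none was deep enough to be tested at the upstream end. Median differences ran from -1.51 in cytosolic ribosomal protein pairs to 0.08 in neuropeptide pairs.

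The 7 intervals that the weighted fit called were named after their values were seen. *psf-3*|*icd-2* (chrI:535345-535790, plus strand), in front of a subunit of the nascent polypeptide-associated complex, had 142 TS and 17 NTS reads in *xpc-1* replicate 1. In *csb-1* it had 13 TS and 21 NTS reads in replicate 1 and 17 and 35 in replicate 2, against 78 and 24 in WT replicate 1 and 26 and 2 in WT replicate 2. The TS outnumbered the NTS in both WT libraries and in neither *csb-1* library. *csb-1* minus WT was -2.74 in log2 units, SE 0.46 (adjusted p = 1.27e-06 from weighted limma). The other 5 that were lower were *chtb-2*|*rpt-3*, which leads into a proteasome ATPase gene (-1.30, adjusted p = 0.0159 from weighted limma), *gpd-4*|*wbp-11* (-1.98), *eif-3.E*|*cdc-26* (-2.10), which leads into a subunit of the anaphase-promoting complex, *egl-30*|*emr-1* (-1.87), a Gq alpha subunit before emerin, and *K01G5.8*|*smap-1* (-1.44), with adjusted p of 0.00871, 0.0253, 0.038 and 0.0422 from weighted limma in this order. The 7 intervals were 231 to 479 bp long. At the upstream end in *xpc-1* replicate 1, *psf-3*|*icd-2* had 65 TS and 27 NTS reads, and *chtb-2*|*rpt-3* had 43 and 55. *gpd-4*|*wbp-11* had 11 and 20 there, *egl-30*|*emr-1* 49 and 73, *eif-3.E*|*cdc-26* 92 and 4, and *K01G5.8*|*smap-1* 155 and 23. Downstream starts had, in order, 201 and 1, 90 and 2, 174 and 9, 129 and 6, 97 and 2, and 97 and 0. The 1 that was higher, *Y105E8A.28*|*Y105E8A.20*, had more NTS than TS reads in the interval in *xpc-1* and WT. Its TS and NTS reads were 7 and 63 in *xpc-1* replicate 1, 9 and 7 (replicate 1) and 27 and 15 (replicate 2) with *csb-1* mutated, and 5 and 30 (replicate 1) and 2 and 5 (replicate 2) in WT.

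Of 10 pairs listed as known operon neighbours, 4 met the rule: the others overlapped, were under 50 bp apart or had another gene inside. *gpd-2*|*gpd-3* joins a pair of genes for glyceraldehyde-3-phosphate dehydrogenase, a glycolytic enzyme, and is the operon pair printed first above. Its upstream end had 35 TS and 1 NTS reads in *xpc-1* replicate 1 and 2 and 0 in replicate 2, 13 TS against 10 NTS and 34 against 19 in *csb-1*, and 30 TS against 4 NTS and 18 against 0 in WT. Its interval had 7 TS and 0 NTS reads in *xpc-1* replicate 1, with the 5 (TS) and 28 (NTS) TT dinucleotides given above. There were 1 TS against 1 NTS and 4 against 11 in *csb-1*, and 5 TS against 4 NTS and 2 against 1 in WT. The downstream start had 43 TS and 2 NTS reads in *xpc-1* replicate 1.

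*fib-1*|*rps-16* joins fibrillarin, which methylates ribosomal RNA, to a protein of the small ribosomal subunit. TS and NTS reads at the upstream end were 104 and 2 in *xpc-1* replicate 1, 34 TS against 23 NTS and 38 against 24 in *csb-1*, and 48 TS against 14 NTS and 37 against 4 in WT. At the downstream start they were 108 and 1 in *xpc-1* replicate 1, 20 TS against 15 NTS and 40 against 30 in *csb-1*, and 54 TS against 13 NTS and 45 against 8 in WT. TS reads exceeded NTS reads in every irradiated library in both genes. *csb-1* minus WT was -1.49 (adjusted p = 0.0665 from weighted limma) upstream and -1.77 (adjusted p = 0.00486 from weighted limma) downstream. The interval between them, with its 4 TT dinucleotides on the TS, had 10 TS reads and 2 NTS reads in *xpc-1* replicate 1 and 3 and 4 in WT replicate 1.

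*lir-2*|*lir-1*, genes of zinc finger proteins related to LIN-26, had 63 TS and 1 NTS reads at the upstream end and 67 and 5 at the downstream start in *xpc-1* replicate 1, but 1 and 1 in the interval. At the upstream end there were 8 TS against 8 NTS and 27 against 28 in *csb-1*, and 19 TS against 10 NTS and 11 against 3 in WT. *mes-3*|*dom-3*, which begins with a gene of germline chromatin repression, is the longest of the 4 at 247 bp. It had 14 TS and 2 NTS reads in the interval in *xpc-1* replicate 1, 4 TS against 7 NTS and 18 against 30 in *csb-1*, and 6 TS against 15 NTS and 4 against 3 in WT. The weighted interval difference was 0.04 (adjusted p = 0.993 from weighted limma).

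The 5 close pairs with the most TS reads per kb of interval in *xpc-1* replicate 1, given as a description, were *rps-10*|*tmem-39* (422 reads per kb), *vgln-1*|*algn-8* (416), *famh-136*|*lnkn-1* (402), *chtb-2*|*rpt-3* (351) and *rps-30*|*C26F1.3* (351). All but *chtb-2*|*rpt-3*, at 478 bp, were 74 to 102 bp long. *rps-10*|*tmem-39*, behind a small-subunit ribosomal protein gene, had 43 TS and 3 NTS interval reads in *xpc-1* replicate 1, 15 TS against 6 NTS and 16 against 9 in *csb-1*, and 19 TS against 3 NTS and 7 against 2 in WT. Its upstream end was called lower in *csb-1* (-1.88, adjusted p = 0.0165 from weighted limma), as was that of *rps-30*|*C26F1.3*, which begins with another small-subunit protein gene (-2.48, adjusted p = 8.57e-05 from weighted limma). *vgln-1*|*algn-8*, behind the gene of the RNA-binding protein vigilin, had 42 TS and 0 NTS interval reads in *xpc-1* replicate 1, 8 TS against 2 NTS and 26 against 7 in *csb-1*, and 19 TS against 1 NTS and 3 against 1 in WT. Of the 4 printed sequences, it is the one whose TS holds more TT dinucleotides than its NTS. In *csb-1* the TS exceeded the NTS in this interval and in that of *rps-10*|*tmem-39*. The same held for *famh-136*|*lnkn-1* (10 TS against 4 NTS and 19 against 10) and *rps-30*|*C26F1.3* (10 against 6 and 13 against 4). These 2 intervals held 12 (TS) and 17 (NTS), and 12 and 13, TT dinucleotides. *chtb-2*|*rpt-3* had 24 TS against 29 NTS and 58 against 53 in *csb-1*. The part of TT content was not tested. *chtb-2*|*rpt-3* was unlike the other 4, since its upstream gene end had 43 TS and 55 NTS reads in *xpc-1* replicate 1 while the interval had 168 and 4 and the downstream start 90 and 2.

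Pairs of 50 to 149 bp joined into 1133 runs with 2468 genes. Of these, 971 held 2 genes, 132 held 3, 23 held 4, 4 held 5 and 3 held 6. In runs of at least 3 genes, counting genes of at least 1 kb, the strand ratio over the whole gene in *xpc-1* was 3.46 and 3.24 for the 128 first genes, 3.18 and 2.86 for 169 inner genes and 2.15 and 1.72 for 134 last genes. In *csb-1* it was 0.08 and 0.08, -0.00 and 0.01, and 0.04 and 0.07 in the same order, and in WT 0.68 and 0.85, 0.43 and 0.49, and 0.30 and 0.33. The TS level in *xpc-1* was 27.3 and 23.9 RPKM in first genes, 20.3 and 12.6 RPKM in inner genes and 15 and 9.21 RPKM in last genes. The excess of the first 500 bp over the last 500 bp of a gene was 0.79 and 1.29 on the log2 scale in first genes, 0.62 and 0.71 in inner genes and 0.32 and 0.63 in last genes in *xpc-1*. In *csb-1* it was 0.30 and 0.20, 0.36 and 0.22, and 0.03 and 0.04 in that order, and in WT 0.59 and 0.53, 0.48 and 0.54, and 0.12 and 0.04. The 46 genes with neighbours 2 to 5 kb away on both sides had an excess of 1.19 and 1.28 in *xpc-1*, 0.14 and 0.14 in *csb-1*, and 0.47 and 0.41 for WT. These positions were compared as sums over genes and were not tested.

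The run of 6 genes with the lowest gene identifier lies on the minus strand of chromosome IV. It begins with *uaf-2*, the small subunit of the splicing factor U2AF, followed by *cyn-13*, a cyclophilin, *sfa-1*, the branch point binding protein, *Y116A8C.30*, *bca-2* and *Y116A8C.27*. In *xpc-1* replicate 1, TS and NTS reads were 387 and 15, 760 and 58, and 533 and 25 in the first 3 genes, and 192 and 49, 207 and 40, and 290 and 134 in the others. The strand ratio was higher in each of the first 3 than in each of the last 3. In *csb-1* replicate 1 the log2 ratios were 0.30, -0.31 and 0.22 for the first 3 and -0.20, -0.32 and 0.40 for the others. In WT replicate 1 they were 1.17, 0.59 and 0.65, then -0.09, 0.25 and 0.37.

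In *xpc-1* the genes of a pair were most alike in TS repair in the shortest pairs and least alike in the far pairs. Across 909 pairs of 50 to 149 bp with both genes at least 1 kb long, Spearman's rho of TS reads per kb between the genes was 0.79 and 0.51 in *xpc-1*, 0.57 and 0.60 in *csb-1*, and 0.60 and 0.53 for WT. In *xpc-1* it was 0.64 and 0.30 across 1235 pairs of 150 to 500 bp, 0.59 and 0.32 across 2139 pairs over 500 bp and under 2 kb apart, and 0.35 and 0.17 across 640 far pairs, so the libraries gave no common order to the intermediate classes. In these intermediate classes *csb-1* had 0.54 and 0.58, then 0.61 and 0.62, and WT had 0.57 and 0.52, then 0.65 and 0.58. Across far pairs the L1 libraries had 0.51 and 0.54 in *csb-1*, and 0.50 and 0.41 for WT. The NTS of the same genes had 0.33 and 0.07 in *xpc-1* for the shortest pairs, and 0.49 and 0.54 in *csb-1*. These values are across pairs, which share library, depth and local base composition, and are given as a description. Both genes had a strand ratio over 1 in 74.8% of the shortest pairs in *xpc-1* replicate 1, against 45.4% of pairs of 150 to 500 bp and 45.6% of far pairs.

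On chromosome X the shortest intervals were fewer and had less TS repair in *xpc-1*. The 83 intervals of 50 to 149 bp on chromosome X had a ratio per TT dinucleotide of 1.13 in *xpc-1* replicate 1 (124 TS and 89 NTS reads), against 2.60 in 1252 autosomal intervals. Replicate 2 had 2 and 6 reads on chromosome X, too few for a comparison. At the upstream end, chromosome X had 2.12 and 2.64 against 3.32 and 3.50 on the autosomes in *xpc-1*, 0.10 and 0.11 against 0.09 and 0.09 in *csb-1*, and 0.31 and 0.39 against 0.64 and 0.82 in WT. The interval ratio on chromosome X was below the autosomal one in *xpc-1* in the longer classes as well, with 0.32 and 0.63 against 0.98 and 0.68 at 150 to 500 bp (replicate 2 with 20 TS and 16 NTS reads on chromosome X) and 0.89 and 0.76 against 1.29 and 1.28 at 2 to 5 kb. In *csb-1* and WT, chromosome X and autosomes differed little in intervals of 50 to 149 bp, with 0.45 and 0.47 against 0.41 and 0.39 in *csb-1* and 0.56 and 0.75 against 0.62 and 0.72 in WT.

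Single intervals were thinly covered. At least 10 reads fell in 35.2% of close intervals in *xpc-1* replicate 1 and in 0.0311% in replicate 2, in 60.4% and 87.3% in *csb-1*, and in 64.6% and 30.8% in WT. Among those with at least 10 reads, TS reads outnumbered NTS reads in 72.1% in *xpc-1* replicate 1, in 39.0% and 36.6% in *csb-1* and in 40.3% and 43.3% in WT. Far intervals with at least 10 reads had a similar share in *xpc-1* replicate 1, at 70.3% of 866. In *xpc-1* replicate 2 it was 91.7% of 72 far intervals, with only 1 close interval to compare. The far shares were lower than the close ones in the L1 libraries, with 27.5% and 25.6% for *csb-1*, then 30.2% and 34.4% for WT. For intervals of 50 to 149 bp the share was 83.8% in *xpc-1* replicate 1, 40.7% and 34.7% in *csb-1*, and 44.5% and 53.8% for WT.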

How the data were processed

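Per the labels, the authors named cutadapt, Bowtie2 and bedtools for processing and ce11 as the genome. The deposited files list distinct reads of 19 to 24 nt with strand and number of copies, and their score column holds the aligner's mapping quality, 0 to 42, without a quality filter. Here reads with a score over 20 on the 6 nuclear chromosomes were kept, each distinct read was counted once, and it was placed by its midpoint and strand relative to Ensembl 115 genes of WBcel235, whose chromosomes match ce11. Depth per library is given in the report, and intervals are exact binomial intervals at 95%.

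Per-interval strand ratios were tested with limma 3.58.1 in R 4.3.3 (prior variance with a trend, Benjamini-Hochberg threshold 0.05) over all same-strand pairs with a mean of at least 20 reads, adding 0.5 reads to each strand, and class sums were compared by exact sign-flip tests over 6 libraries or exact permutation tests run with Python 3.11.15 (scipy 1.17.1, numpy 2.4.6, pandas 2.3.3). Fits were tested on simulated data, 200 intervals among 5607 changed by 1, 2 or 4 on the log2 scale with a noise of 0.1. The members, lists and tests were chosen with earlier results of these data known. Named pairs are those of a list of operon neighbours, the strongest interval calls (the unweighted fit made none, so the calls of the weighted fit are named instead), and the 5 with most TS reads per kb of interval in *xpc-1* replicate 1 with at least 20 reads there, more TS than NTS reads over the 3 windows in replicate 2 and no other gene in the windows. Families were taken by gene symbol, and 41 adult and germline genes were read as stage markers, though their strand ratio depends on strain as well. Alternatives counted copies, positions or any mapping quality, divided by TT content, left out pairs or libraries, changed filters, weights, pseudocount or the class compared, or used the replicate number as a block.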

Additional observations from a re-analysis of the deposited data

Results flagged for a closer look

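The interval strand ratio, close minus far, lay below 0 in both *xpc-1* libraries (-0.12 and -0.46 on the log2 scale) and within 0.01 of 0 in both WT libraries (0.01 and 0.00), where the sign carries no clear direction. The means differed by -0.30, *xpc-1* minus WT. The *xpc-1* mean, -0.29, was 0.32 against pairs over 500 bp and under 2 kb apart and 0.63 against the first 250 bp of the far intervals. The difference between the groups was not tested.

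The TS level of the interval relative to its flanks, close minus far, lay below 0 in both *xpc-1* libraries (-0.28 and -0.50) and above 0 in both *csb-1* libraries (0.12 and 0.09), again in opposite directions, with a difference of -0.50 between the means, *xpc-1* minus *csb-1*. Against the first 250 bp of the far intervals the means were 0.29 in *xpc-1* and 0.05 in *csb-1*, no longer in opposite directions. This difference was not tested either.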

How the results depend on the processing

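Close minus far in the interval ratio (mean -0.09) was 0.09 per TT dinucleotide, 0.09 against pairs over 500 bp and under 2 kb apart, and 0.13 against the first 250 bp of far intervals, and -0.15 with both genes at least 1 kb long (exact p = 0.03125). Intervals of 50 bp to under 150 bp minus those of 150 to 500 bp, a split chosen after seeing the data, gave 0.26, and 0.78 per TT dinucleotide. The TS level relative to flanks (mean -0.09) was 0.14 against the first 250 bp of far intervals (exact p = 0.03125) and 0.03 for the length split per TT dinucleotide. Downstream start over upstream end (mean -0.31) was -0.32 with copies, -0.29 with any mapping quality, each with exact p-values above 0.05, and -0.33 for the length split. Leaving out 1 library gave -0.37 to -0.19, and 5 libraries cannot reach an exact p under 0.06250. Other alternatives of these results kept their direction and their side of the threshold. The cause of the changes was not tested.

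Calls of close pairs in *csb-1* against WT were 0 in each window and direction. Weighting by read counts gave 6 lower and 1 higher in the interval, 138 and 3 at the upstream end, and 150 and 1 at the downstream start. Each position counted once, and a pseudocount of 1, gave 1 lower at the downstream start. Leaving out 1 library gave 0 to 62 lower and 0 to 53 higher in the interval, 0 to 432 and 0 to 107 at the upstream end, and 0 to 438 and 0 to 132 at the downstream start, with the highest counts without WT replicate 1. A single library is then assumed to vary like the 2 of the other group.

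With the replicate number as a block, 1 close pair was lower at the upstream end, and the interval differences were -0.08 for *csb-1* and 0.91 for *xpc-1* minus WT (exact p = 0.50 with 2 pairs). Deviations of same-numbered libraries in the interval strand ratio correlated at 0.013 over 5607 intervals. Counting error in thin intervals can hide a pairing, so this value cannot show whether the numbers pair the samples. Depth limits *xpc-1* replicate 2 most, with a median of 0 reads per close interval.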
